A study of Homo sapiens with 37 samples.

Results

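Cytosolic ribosomal protein genes encode the protein components of the ribosome that translates nuclear mRNA. They were taken by their symbols: protein-coding genes named RPL or RPS with a number and, where present, a letter A, X or L, together with RPLP0, RPLP1, RPLP2 and RPSA. Pseudogenes and the RPS6 kinases were left out. The rule gave 84 of the 57773 gene identifiers in the files. Of these, 77 are core members, 46 of the large and 31 of the small subunit, and 7 are paralogs: RPL3L, RPL7L1, RPL10L, RPL22L1, RPL26L1, RPL39L and RPS27L. The rule uses the symbols and no measured value.

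Ribosomal protein mRNAs are short, abundant and long-lived, and most begin with a tract of pyrimidines, the TOP motif. Through that motif the kinase mTOR and the RNA-binding protein LARP1 set their translation and stability. RPL5 and RPL11 carry the 5S rRNA into the large subunit, and when ribosome assembly is disturbed the same complex binds MDM2 and so stabilises p53. The paralogs resemble single ribosomal proteins to differing degrees, and RPS27L is a known p53 target.

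Total RNA of human cells with lasting growth arrest, named senescent in the labels, was sequenced beside dividing cells in 37 libraries after removal of ribosomal RNA. HAEC are endothelial cells of the aorta and HUVEC of the umbilical vein. IMR-90 and WI-38 are diploid fibroblast strains from human lung. Growth arrest itself is not measured by these counts. HAEC at population doubling level (PDL) 4 to 6 gave 3 libraries after 4 Gy of ionising radiation and 2 control libraries. HUVEC at PDL 3 to 5 gave 3 libraries after 4 Gy and 3 control libraries. Each fibroblast group had 2 libraries. IMR-90 cells were irradiated with 10 Gy at PDL 15 or grown to PDL 52, and 2 libraries of proliferating PDL 15 cells served as the control of both. WI-38 cells at PDL 25 received doxorubicin, a DNA-damaging drug, at 2 µg/mL for 24 h, against untreated cells, in a first experiment and in a repeat. WI-38 cells at PDL 25 were also given a lentivirus with mutant HRAS (G12V), against an empty vector, each at a multiplicity of infection of 10 with 1 µg/mL puromycin. In a further pair WI-38 cells received 10 Gy, against untreated cells. Replicative exhaustion at PDL 53 to 55 was compared with proliferating cells at PDL 25. The labels do not say whether libraries of a group came from separate cultures, so p-values measure the spread between these libraries, which may be technical.

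The sequence at the start of transcription shows which members carry the TOP motif. It is taken here as a C at the start followed by at least 4 bases that are each C or T, read on the strand of the gene only. RefSeq promoter windows (GRCh38.p14) held a start for 67 of the 84 members. Of 62 core members with a start, 46 (74.2%) met this rule, against 1404 of 27305 symbols in the whole table (5.14%). Of 5 paralogs with a start, only RPL22L1 met it. The windows below hold the 10 bases before the start and the 20 from it for markers of the module and for paralogs beside their partners, with the pyrimidine run in capitals.
RPS6, a small-subunit protein and target of S6 kinase (chr9:19380217-19380246, minus strand): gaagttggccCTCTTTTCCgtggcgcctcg
RPLP0, the base of the P stalk that recruits elongation factors (chr12:120201092-120201121, minus strand): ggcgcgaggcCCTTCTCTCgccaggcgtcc
RPL11 (chr1:23691796-23691825, plus strand): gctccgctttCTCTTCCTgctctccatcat
RPL3, a protein near the peptidyl transferase centre (chr22:39319604-39319633, minus strand): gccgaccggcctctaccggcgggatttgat
RPS27 (chr1:153990752-153990781, plus strand): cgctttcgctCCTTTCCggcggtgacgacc
RPS27L (chr15:63157458-63157487, minus strand): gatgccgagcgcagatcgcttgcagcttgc
RPL22 (chr1:6199576-6199605, minus strand): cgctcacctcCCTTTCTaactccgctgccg
RPL22L1 (chr3:170870176-170870205, minus strand): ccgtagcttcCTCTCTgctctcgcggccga
RPL39 (chrX:119791611-119791640, minus strand): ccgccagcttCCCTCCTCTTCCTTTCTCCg
RPS27 begins with the motif and its paralog RPS27L does not, while RPL22 and RPL22L1 both do. The run after the start of RPL3 was too short for the rule, so at this start it counts as having no motif. A match describes these letters alone.

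Library totals ran from 102293388 to 370996204 counts. In 25 libraries (all endothelial and IMR-90 cells, the first doxorubicin experiment and the HRAS experiment) protein-coding genes held 50.7% to 66.9% of the counts, and in the 12 libraries of the repeat, irradiated and late-passage WI-38 experiments 82.0% to 91.1%. Pseudogenes named after members held 6.30 to 8.15 counts per 100 member counts in the first 25 libraries and 9.0 to 12.1 in the other 12. Endothelial and fibroblast markers matched the labels. The 4 endothelial markers summed to 854 to 1147 CPM, counts over the TMM-scaled total of a library, in endothelial cells and to 10.8 to 306 CPM in fibroblasts, where CDH5 and VWF stayed at or below 2.59 CPM in every library. The 4 fibroblast markers summed to 766 to 7706 CPM in fibroblasts and to at most 24.6 CPM in endothelial cells. PTPRC, which defines leukocytes, reached at most 1.75 CPM and EPCAM, which defines epithelium, at most 0.770 CPM in any library. Other markers of their lists were not all low. Epithelial markers summed to 312 to 890 CPM in HAEC and to 136 to 215 CPM in HUVEC. Leukocyte markers summed to 23.3 to 58.4 CPM in the 12 libraries and to 4.75 to 18.8 CPM in the 25. HRAS reached 1944 and 1989 CPM in the libraries given the mutant, against 36.1 and 47.0 CPM with the empty vector. In bulk RNA fewer cells of a type and less RNA per cell cannot be told apart.

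Changes are given as log2 fold changes of the condition over its own control, fitted on all genes that passed a filter on low counts, and a gene is called when its adjusted p is below 0.05. In the 25 libraries 82 members passed the filter, and in the 12 libraries all 84. RPL3L and RPL10L, which did not pass in the 25, had at most 0.120 CPM in any library.

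The members' share of protein-coding counts lay below that of the controls in each fibroblast comparison, with no overlap between groups. In late-passage WI-38 cells it was 2.97% and 4.03%, against 6.35% and 5.96% in proliferating cells. The repeat doxorubicin experiment gave 4.42% and 5.19%, against 8.12% and 6.62% without the drug. In irradiated WI-38 cells it was 7.02% and 8.67%, against 9.29% and 9.11% in controls. The groups of this comparison did overlap in the median log2 CPM of core members, at 9.45 and 9.84 after radiation, against 9.71 and 9.74. That median overlapped in the first doxorubicin experiment too, at 8.39 and 8.34, against 8.36 and 8.55. With mutant HRAS it was 8.13 and 7.90, against 7.97 and 7.48. These groups also overlapped, and the mean was higher with HRAS (8.02 against 7.73). Mitochondrially encoded RNA held a larger percent of all counts in both irradiated WI-38 libraries than in either control, at 9.71% and 14.02%, against 6.31% and 6.99%. Its part in the share was not tested. For IMR-90 the share was 4.29% and 4.33% after radiation and 4.09% and 3.77% at PDL 52, against 5.25% and 5.80% at PDL 15. The first doxorubicin experiment gave 5.24% and 5.18%, against 5.30% and 5.82%, and mutant HRAS gave 4.44% and 4.15%, against 4.98% and 4.56% with the empty vector. Endothelial cells showed the opposite order by a small margin. Irradiated HAEC had 7.27%, 7.49% and 7.26%, against 7.20% and 7.11% in controls. Irradiated HUVEC had 6.22%, 6.25% and 6.10%, against 6.03%, 6.18% and 5.97%, and these groups overlapped. No test was run on these shares, since 2 or 3 libraries a group do not allow a permutation test to pass 0.05.

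**Figure D1:**
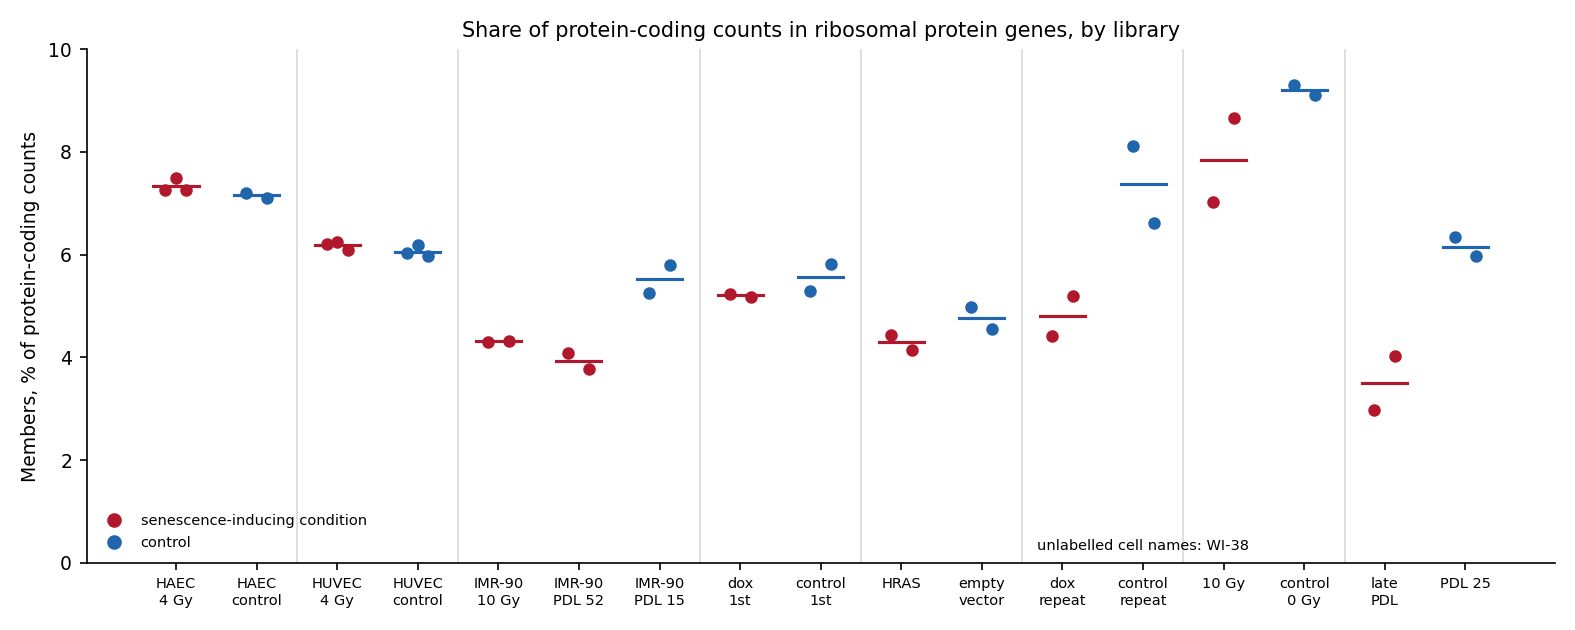
Percent of each library's protein-coding counts that fell in the ribosomal protein genes. Each point is 1 library, red for the senescence-inducing condition and blue for its control, and bars are group means; late-passage WI-38 cells had 2.97% and 4.03%, against 6.35% and 5.96% in PDL 25 cells.

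Replicative exhaustion of WI-38 cells went with lower ribosomal protein mRNA across both subunits. Of 84 members tested, 47 were called lower, where 6.82% of all 33612 genes were called lower. None were called higher by edgeR, where 5.8% of all genes were, and the count was also 0 at an unadjusted p below 0.05 and with DESeq2. The median log2 fold change of the members was -0.77 and that of all genes 0.01. RPS6 had 655 and 777 CPM in late-passage cells, against 1875 and 1759 CPM in proliferating cells, and so lay lower in both late libraries. Its log2 fold change was -1.34 ± 0.19 (SE, n = 2 each, adjusted p = 0.000327). RPL5 had 1324 and 1506 CPM, against 2927 and 2808 CPM, and fell by 1.02 ± 0.17 on the log2 scale (adjusted p = 0.00119). RPL3 had 804 and 1048 CPM, against 1948 and 1872 CPM, a log2 fold change of -1.05 ± 0.21 (adjusted p = 0.00352).

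Late-passage WI-38 cells also had less RPLP0 and RPL11. RPLP0 had 442 and 640 CPM, against 1073 and 1005 CPM in proliferating cells (log2 fold change -0.94 ± 0.21, adjusted p = 0.00786). RPL11 had 408 and 525 CPM, against 876 and 802 CPM (-0.85 ± 0.20, adjusted p = 0.0103). Among called members the lowest values were those of RPL22L1, RPL7 and RPL36A. RPL7, a large-subunit protein, had 843 and 859 CPM, against 2342 and 2148 CPM, and RPL36A had 24.2 and 26.6 CPM, against 67.0 and 66.0 CPM. Their log2 fold changes were -1.40 ± 0.19 and -1.39 ± 0.27. RPS28 had the highest value of the members, at 0.07, and was not called. The count of 47 rests partly on single libraries: it was 20 without late-passage replicate 1, 14 without proliferating replicate 1 and 27 without proliferating replicate 2. The calls of RPLP0 and RPL11 were lost without late-passage replicate 1 (adjusted p = 0.0914 and 0.106) and without proliferating replicate 1 (0.0844 and 0.129), and that of RPL11 without proliferating replicate 2 (0.0508). Beside these values the fibroblast markers summed to 2759 and 2918 CPM in late-passage cells, against 4529 and 4498 CPM, and the leukocyte markers to 44.5 and 58.4 CPM, against 30.8 and 28.3 CPM, with CD68 called higher. Their part in the result was not tested.

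The repeat doxorubicin experiment gave a median of -0.68, with 0.04 for all genes. Of 84 members, 23 were called lower, where 2.26% of all 33612 genes were, and none higher by edgeR, where 3.18% of all genes were. At an unadjusted p below 0.05, and with DESeq2, the count of higher members was 0 too. RPL3 had 1155 and 1237 CPM with doxorubicin, against 2613 and 1884 CPM without it, and fell by 0.91 ± 0.21 on the log2 scale (adjusted p = 0.0179). RPS6 had 952 and 1116 CPM, against 2029 and 1548 CPM, with a log2 fold change of -0.79 ± 0.19 (adjusted p = 0.0267). Both genes were lower in both treated libraries, and the controls lay farther apart than the treated pair. RPL36A had 35.3 and 50.4 CPM, against 156 and 75.7 CPM, and RPS28, a small-subunit protein near the mRNA exit, 31 and 35.5 CPM, against 105 and 53.1 CPM. Their log2 fold changes, -1.43 ± 0.27 and -1.25 ± 0.28, were the lowest among called members, with adjusted p = 0.00686 and 0.0181. RPLP0, RPL5 and RPL11 had log2 fold changes of -0.64, -0.48 and -0.58 and did not pass, at adjusted p = 0.0937, 0.133 and 0.104. The number of calls turned on single libraries. No member was called lower without doxorubicin replicate 1 or without control replicate 1, 14 were without doxorubicin replicate 2, and 43 were without control replicate 2. RPL3 and RPS6 lost their calls without doxorubicin replicate 1 (adjusted p = 0.0824 and 0.147), doxorubicin replicate 2 (0.0602 and 0.0520) or control replicate 1 (0.199 and 0.260). RPL36A and RPS28 lost theirs without doxorubicin replicate 1 (adjusted p = 0.0555 and 0.0962) and without control replicate 1 (0.0991 and 0.303), and RPS28 also without doxorubicin replicate 2 (0.0592). The DESeq2 Wald test called 49 lower, a test with no filter 43, a fit of all 37 libraries 66 and a fit of the compared groups alone 4. The share of all genes called under these settings is not given here.

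In the first doxorubicin experiment the core members moved little. The median was -0.08, with 0.01 for all genes, and 5 of 82 members were called lower, where 13.2% of all 29380 genes were. None were called higher by edgeR, where 13.6% of all genes were, while 3 were higher at an unadjusted p below 0.05 and 0 with DESeq2. The 5 were the paralogs RPL39L, RPL22L1 and RPL7L1 with RPSA, the laminin-binding protein of the small subunit, and RPS2. RPSA had 606 and 612 CPM with doxorubicin, against 768 and 825 CPM without it (log2 fold change -0.39 ± 0.12, adjusted p = 0.0272). RPS2 had 678 and 697 CPM, against 859 and 917 CPM (-0.37 ± 0.13, adjusted p = 0.0491). RPL7L1 had 111 and 107 CPM, against 154 and 157 CPM (-0.51 ± 0.16, adjusted p = 0.0282), and its call was lost when any 1 of the 4 libraries was left out (adjusted p from 0.115 to 0.132). RPL3, RPS6, RPLP0, RPL5 and RPL11 had log2 fold changes of -0.16, -0.11, -0.17, -0.38 and -0.15, none called. RPL39L and RPL22L1 stayed called without each of the 4 libraries in turn, and the count of members called lower was 2 each time. A fit of the compared groups alone, where the spread of the HRAS and empty vector libraries does not enter, called 9 higher and 21 lower. Library totals gave 14 lower, and no filter and a fit of all 37 libraries each gave 8.

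**Figure D2:**
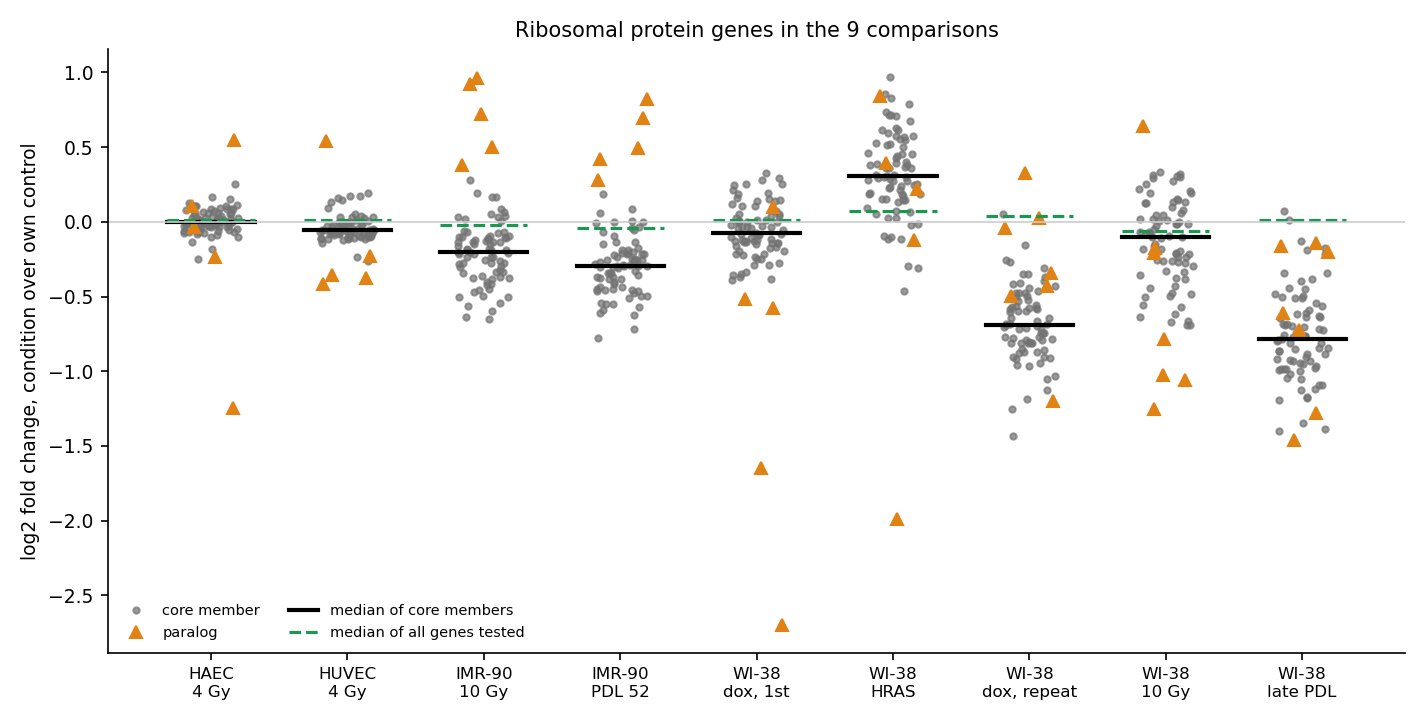
Log2 fold change of each ribosomal protein gene over its own control in the 9 comparisons. Grey points are core members, orange triangles paralogs, black bars the median of core members and green dashed bars the median of all genes tested; core members centre at -0.78 in late-passage WI-38 cells and at 0.31 with mutant HRAS, and paralogs lie above the core members in both IMR-90 comparisons.

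Irradiated IMR-90 cells had lower core members and higher paralogs. Of 77 core members 45 were called lower and 2 higher, and of 5 paralogs tested all 5 were called higher, where 22.5% of all 29274 genes were called lower and 26.6% higher. The members' median was -0.19, with -0.02 for all genes. RPL3 had 840 and 832 CPM after radiation, against 1249 and 1382 CPM at PDL 15, and fell by 0.65 ± 0.06 on the log2 scale (adjusted p = 5.33e-07). RPLP0 had 922 and 927 CPM, against 1143 and 1255 CPM (-0.38 ± 0.06, adjusted p = 0.00012). RPL5 had 387 and 396 CPM, against 456 and 491 CPM (-0.27 ± 0.06, adjusted p = 0.0014). All 3 lay lower in both irradiated libraries. RPL12, part of the stalk base, had 181 and 184 CPM, against 264 and 288 CPM, with a log2 fold change of -0.60 ± 0.06 (adjusted p = 1.14e-06). RPS6, at -0.22 ± 0.06 (adjusted p = 0.0102), and RPL11, at -0.18 ± 0.06 (adjusted p = 0.0214), lost their calls without either irradiated library (adjusted p from 0.0719 to 0.164) and without PDL 15 replicate 2 (0.099 and 0.160). The 2 core members called higher were RPL35, at 0.28 ± 0.08, and RPS26, at 0.17 ± 0.06. The count of members called lower was 32 without irradiated replicate 1, 30 without irradiated replicate 2, 31 without PDL 15 replicate 2 and 56 without PDL 15 replicate 1. It was 71 on library totals, where 4 members were called higher, and 11 in a fit of all 37 libraries.

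IMR-90 cells at PDL 52 showed a similar picture, against the same control libraries, so the IMR-90 comparisons are not independent of each other. Of 77 core members 61 were called lower, where 23.5% of all 29274 genes were, and none higher by edgeR, where 26.6% of all genes were. At an unadjusted p below 0.05, and with DESeq2, 1 was higher. In a fit of all 37 libraries 16 members were called lower. The members' median was -0.29, with -0.04 for all genes. RPL3 had 871 and 855 CPM at PDL 52, against 1249 and 1382 CPM at PDL 15 (log2 fold change -0.61 ± 0.06, adjusted p = 1.09e-06). RPS6 had 635 and 599 CPM, against 743 and 825 CPM (-0.35 ± 0.06, adjusted p = 0.000346). RPLP0 had 901 and 859 CPM, against 1143 and 1255 CPM (-0.45 ± 0.06, adjusted p = 2.39e-05). These genes did not overlap between the groups. RPL13A, whose protein also silences interferon-response mRNAs, had 1087 and 1003 CPM, against 1523 and 1701 CPM, with a log2 fold change of -0.63 ± 0.06 (adjusted p = 1.92e-06). RPL5 and RPL11 were called lower as well, at -0.34 ± 0.06 and -0.25 ± 0.06. Compared directly, irradiated and PDL 52 cells differed in 2 of 82 members called higher after radiation, RPL39L and RPS21, where 5.12% of all genes were. The count was 0 without either irradiated library, 1 without PDL 52 replicate 2 and 11 without PDL 52 replicate 1. None were lower by edgeR, with 0 at an unadjusted p below 0.05 and 0 with DESeq2, where 5.45% of all genes were called lower. Fibroblast markers summed to 2279 and 2308 CPM after radiation and 3654 and 3699 CPM at PDL 52, against 7706 and 7245 CPM at PDL 15. Their part in these results was not tested.

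With mutant HRAS the number and balance of calls depended on the scaling. Under the main scaling 28 of 82 members were called higher, where 27.1% of all 29380 genes were, and 2 lower, where 18.9% were. The members' median was 0.31, with 0.07 for all genes. Scaled on protein-coding genes alone, 7 were higher and 8 lower with a median of 0.05 and one of 0.02 for all genes. On library totals 4 were higher and 7 lower with a median of 0.03 and one of -0.20 for all genes. The empty vector libraries differed from each other: core members had a median log2 CPM of 7.97 in replicate 1 and of 7.48 in replicate 2. Without empty vector replicate 1 the main scaling called 50 higher and 3 lower, without replicate 2 it called 19 higher and 8 lower, without HRAS replicate 1 it called 10 higher, and without HRAS replicate 2 it called 1 lower. A fit of the compared groups alone called 10 higher, and one of all 37 libraries 4 lower. RPS24 had 259 and 199 CPM with HRAS, against 148 and 85.6 CPM with the empty vector, and RPS28 had 143 and 150 CPM, against 74.7 and 87.0 CPM. Both were higher in both HRAS libraries, with log2 fold changes of 0.97 ± 0.21 and 0.86 ± 0.12 (adjusted p = 0.00282 and 0.000138). RPL3 had 796 and 737 CPM, against 1027 and 1090 CPM, and fell by 0.47 ± 0.11 on the log2 scale (adjusted p = 0.00473). Without HRAS replicate 2 its adjusted p was 0.0521. RPL11 had 383 and 334 CPM, against 299 and 253 CPM (0.38 ± 0.13, adjusted p = 0.0326), and lost its call without empty vector replicate 2 (0.262) or HRAS replicate 1 (0.222). RPL5, RPS6 and RPLP0 had log2 fold changes of 0.45, 0.19 and -0.12 and did not pass. RPL5 had 272 and 209 CPM, against 220 and 131 CPM, so the groups overlapped, and it was called higher without empty vector replicate 1 (adjusted p = 5.02e-05) or HRAS replicate 2 (0.0496). RPS6 was called higher without empty vector replicate 1 as well (0.00252). Fibroblast markers summed to 766 and 854 CPM with HRAS, against 4444 and 5280 CPM with the empty vector, and their part in these values was not tested.

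Irradiated WI-38 cells had 3 of 84 members called lower, where 6.09% of all 33612 genes were, and none higher by edgeR, where 8.89% of all genes were. The count of higher members was 1 at an unadjusted p below 0.05 and 1 with DESeq2. The members' median was -0.13, with -0.06 for all genes. The 3 were RPL22L1, RPL39L and RPSA. RPSA had 1024 and 1369 CPM after radiation, against 1870 and 1998 CPM in controls, and fell by 0.69 ± 0.21 on the log2 scale (adjusted p = 0.0352). It lost its call without irradiated replicate 1 (0.139), control replicate 1 (0.119) or control replicate 2 (0.185). RPL3 had 1533 and 1928 CPM, against 2512 and 2794 CPM, did not overlap between the groups and missed the threshold (-0.62 ± 0.20, adjusted p = 0.0572), which it passed without irradiated replicate 2 (0.0433). RPS6, RPLP0, RPL5 and RPL11 had log2 fold changes of -0.27, -0.48, -0.35 and -0.07, none called. Irradiated replicate 1 lay below replicate 2 for most named members, and without replicate 2 the count of members called lower was 8. It was 1 without irradiated replicate 1 or either control library, and from 5 to 17 under 7 other settings.

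Core members showed small changes in both directions in endothelial cells. The paralogs RPL39L and RPS27L, given further on, showed larger ones, as did RPL22L1 and RPL7L1 in HUVEC. In HAEC the paralogs RPL7L1 and RPL26L1 were not called, at -0.04 and 0.10. In HUVEC they were called lower, at -0.38 ± 0.04 and -0.23 ± 0.05 (adjusted p = 1.16e-08 and 0.000696). In irradiated HAEC 17 of 82 members were called higher, where 19.7% of all 28024 genes were, and 8 lower, where 19.9% were. The members' median was 0.00 and that of all genes 0.01. RPS19, a small-subunit assembly protein mutated in Diamond-Blackfan anaemia, had 835, 877 and 838 CPM after radiation, against 719 and 706 CPM (log2 fold change 0.25 ± 0.03, n = 3 and 2, adjusted p = 4.64e-07). RPL13A had 2159, 2225 and 2161 CPM, against 1957 and 1926 CPM (0.17 ± 0.03, adjusted p = 1.34e-05). RPS6 had 1161, 1228 and 1178 CPM, against 1325 and 1289 CPM (-0.14 ± 0.03, adjusted p = 0.00057). None of these 3 overlapped between the groups. RPL5, at 0.09 ± 0.03 (adjusted p = 0.0192), lost its call without irradiated replicate 3 (0.0585) or control replicate 2 (0.123). RPS16, at -0.25 ± 0.09 (adjusted p = 0.0427), had 4.96 to 5.93 CPM, against 6.35 and 6.2 CPM, and lost it without either control (0.170 and 0.0735) or without irradiated replicate 2 or 3 (0.140 and 0.170). RPS16 had at most 6.35 CPM in these 25 libraries and at least 189 CPM in the other 12, and whether the same reads were counted for it in both is not known, so its value here is uncertain. RPL3, RPLP0 and RPL11 had log2 fold changes of 0.03, -0.03 and 0.04 and were not called. The number called higher was 9 without control replicate 2 and 11 without irradiated replicate 3, and the number called lower was 4 without control replicate 1 or irradiated replicate 3. Library totals gave 31 higher and 4 lower, and a fit of all 37 libraries 1 and 1.

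In irradiated HUVEC 8 of 82 members were called higher, where 18.6% of all 27519 genes were, and 21 lower, where 20.1% were. The members' median was -0.05 and that of all genes 0.01. RPL3 had 1714, 1722 and 1670 CPM after radiation, against 1474, 1549 and 1503 CPM, and rose by 0.17 ± 0.03 on the log2 scale (n = 3 each, adjusted p = 0.000252). RPL10 had 758, 827 and 751 CPM, against 689, 668 and 684 CPM (0.19 ± 0.04, adjusted p = 0.000259), and RPL13A 1721, 1749 and 1689 CPM, against 1506, 1552 and 1508 CPM (0.18 ± 0.03, adjusted p = 0.000176). All 3 were higher in each irradiated library than in each control. RPL10 shares 59.8% of its 31-base stretches with other genes, so its counts are uncertain. RPS6 had 1001, 1002 and 994 CPM, against 1046, 1121 and 1070 CPM (-0.11 ± 0.04, adjusted p = 0.0156), and lost its call without irradiated replicate 1 (0.0528), irradiated replicate 3 (0.0555) or control replicate 2 (0.107). RPLP1, an acidic stalk protein, had 51.2, 49.1 and 46.8 CPM, against 59.5, 57.3 and 59.3 CPM (-0.26 ± 0.04, adjusted p = 7.06e-06). RPLP1 had at most 59.5 CPM in the 25 libraries and at least 183 CPM in the other 12. Whether the same reads were counted for it in both is not known, so its value is uncertain too. RPLP0, RPL5 and RPL11 had log2 fold changes of -0.01, -0.06 and -0.07, none called, and RPL11 was called lower without control replicate 1 (adjusted p = 0.0461). The number called lower was 30 without that library, 11 without irradiated replicate 1, 7 without irradiated replicate 3 and 8 without control replicate 2. It was 7 on library totals and 1 in a fit of all 37 libraries, where 1 was called higher.

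The difference between the endothelial responses was tested in 1 fit. The response of HUVEC was above that of HAEC for 2 of 82 members, where 8.85% of all 30317 genes were, and below it for 8, where 9.11% were. RPL3 had a log2 difference of 0.15 ± 0.04 (adjusted p = 0.0108) and RPL5 one of -0.14 ± 0.04 (adjusted p = 0.0198). The call of RPL3 was lost without any 1 of the 5 HAEC libraries, irradiated HUVEC replicate 1 or HUVEC control replicate 1 or 3 (adjusted p from 0.0661 to 0.213), and that of RPL5 without irradiated HUVEC replicate 3 (0.0566). The count below ran from 4, without irradiated HUVEC replicate 3, to 27, without HUVEC control replicate 1. It was also 5 without HAEC control replicate 2, 14 to 19 without irradiated HAEC replicate 1 or 3 or HAEC control replicate 1, and 18 without HUVEC control replicate 3. Protein-coding genes alone gave 15 below, and a fit of all 37 libraries 0 in either direction. RPL7L1, RPL26L1 and RPL24 were lowest among the 8, at -0.34 ± 0.05, -0.33 ± 0.08 and -0.20 ± 0.05. Epithelial markers, here the keratins KRT7 and KRT19 with EPCAM at no more than 0.770 CPM, summed to 876 to 890 CPM in irradiated HAEC, against 312 and 329 CPM. In irradiated HUVEC they summed to 211 to 215 CPM, against 136 to 138 CPM. Their part in these results was not tested.

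Several paralogs and their partners were called in opposite directions or only 1 of the pair was called. In some WI-38 comparisons both of a pair moved the same way. RPS27L, whose partner RPS27 is a zinc-finger protein of the small subunit, was called higher in 5 of 9 comparisons and lower in none. In irradiated IMR-90 cells it had 144 and 148 CPM, against 71.9 and 77.5 CPM at PDL 15, a log2 fold change of 0.96 ± 0.07 (adjusted p = 6.92e-08). In the same libraries RPS27 had 158 and 162 CPM, against 219 and 254 CPM, and fell by 0.57 ± 0.07 on the log2 scale (adjusted p = 1.7e-05). At PDL 52, with the same controls, the values were 0.83 ± 0.07 for RPS27L and -0.71 ± 0.07 for RPS27 (adjusted p = 3.36e-07 and 1.71e-06). RPS27L had 166, 174 and 168 CPM in irradiated HAEC, against 119 and 113 CPM (0.55 ± 0.03, adjusted p = 5.88e-11), and 119, 120 and 121 CPM in irradiated HUVEC, against 80.2, 82.6 and 84.2 CPM (0.54 ± 0.04, adjusted p = 5.28e-12). RPS27 was not called in either endothelium, at 0.02 and 0.04. With mutant HRAS RPS27L had 103 and 78.5 CPM, against 68.6 and 32.7 CPM (0.84 ± 0.26, adjusted p = 0.019), a call that was lost without empty vector replicate 2 (0.0683) or HRAS replicate 1 (0.127). In irradiated WI-38 cells RPS27L had 235 and 243 CPM, against 154 and 153 CPM, with no overlap, and missed the threshold (0.64 ± 0.21, adjusted p = 0.0521). Doxorubicin gave 0.10 ± 0.26 and -0.04 ± 0.21 in the first experiment and the repeat, and late passage of WI-38 gave -0.16 ± 0.21, none called, while RPS27 was called lower there at -0.86 ± 0.23 (adjusted p = 0.0224). That call of RPS27 was lost without late-passage replicate 1 (0.192) or proliferating replicate 1 (0.265).

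RPL22L1, a paralog of the RNA-binding protein RPL22, was called lower in 6 comparisons and higher in both IMR-90 comparisons. In the first doxorubicin experiment it had 22.1 and 20.5 CPM with the drug, against 64.0 and 69.6 CPM without it, and fell by 1.65 ± 0.31 on the log2 scale (adjusted p = 0.00206). The repeat gave 8.16 and 12.1 CPM, against 29.3 and 17.2 CPM (-1.20 ± 0.25, adjusted p = 0.012), lost without doxorubicin replicate 1 (0.106) or control replicate 1 (0.191). Late passage of WI-38 gave 8.39 and 7.49 CPM, against 22.8 and 20.9 CPM (-1.46 ± 0.25, adjusted p = 0.00143). Radiation of WI-38 gave 18 and 19.7 CPM, against 38.8 and 38.1 CPM (-1.02 ± 0.25, adjusted p = 0.0124), lost without control replicate 1 (0.0643). In these 4 WI-38 comparisons every treated library lay below every control. Radiation of HAEC and HUVEC gave smaller decreases of -0.24 ± 0.04 and -0.35 ± 0.03 (adjusted p = 1.86e-05 and 8.65e-09). RPL22 lay lower as well in the repeat doxorubicin experiment, at -0.69 ± 0.22, and was not called. In late-passage WI-38 cells RPL22 had 471 and 579 CPM, against 914 and 871 CPM. In the first doxorubicin experiment and irradiated WI-38, HAEC and HUVEC it was at 0.04, 0.10, -0.01 and -0.05, none called. In IMR-90 RPL22L1 had 35.3 and 37.2 CPM after radiation and 33.9 and 37.4 CPM at PDL 52, against 22.1 and 21.9 CPM at PDL 15. It rose by 0.72 ± 0.07 after radiation and 0.70 ± 0.07 at PDL 52, while RPL22 fell by 0.24 ± 0.06 and 0.23 ± 0.06, the first of which was not called without irradiated replicate 2 (adjusted p = 0.0877). With mutant HRAS RPL22L1 had 25.8 and 17 CPM, against 25.9 and 10.8 CPM, and was not called (0.22 ± 0.31), except without empty vector replicate 1 (adjusted p = 0.000255).

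RPL39L, whose partner RPL39 lines the exit tunnel, had the largest fold change of any member in the first doxorubicin experiment. It had 2.20 and 1.82 CPM with the drug, against 12.1 and 14 CPM, and fell by 2.70 ± 0.17 on the log2 scale (adjusted p = 2.49e-07), while RPL39 had 203 and 201 CPM, against 155 and 184 CPM (0.25 ± 0.16, not called). Mutant HRAS gave 1.90 and 2.17 CPM, against 7.77 and 8.35 CPM with the empty vector (-1.99 ± 0.17, adjusted p = 1.59e-06). Irradiated HAEC had 5.51, 5.56 and 5.61 CPM, against 14.6 and 11.6 CPM (-1.25 ± 0.08, adjusted p = 1.71e-10). Irradiated HUVEC had 12.7, 13.2 and 13 CPM, against 16.9, 16.7 and 18.4 CPM (-0.42 ± 0.05, adjusted p = 7.04e-07). Groups did not overlap in any of these. In irradiated WI-38 RPL39L had 3.54 and 4.24 CPM, against 7.24 and 9.01 CPM (-1.06 ± 0.28, adjusted p = 0.0188), lost without irradiated replicate 1 (0.0612) or control replicate 2 (0.154). IMR-90 again ran the other way, with 8.39 and 8.49 CPM after radiation and 6.41 and 6.13 CPM at PDL 52, against 4.37 and 4.52 CPM at PDL 15. The log2 fold changes were 0.92 ± 0.09 and 0.50 ± 0.09 (adjusted p = 1.09e-06 and 0.00042). The repeat doxorubicin and late-passage WI-38 comparisons gave -0.50 ± 0.28 and -0.61 ± 0.28, not called. RPL39 was lower in the repeat too, at -0.44 ± 0.21, not called. In late-passage cells RPL39 had 85.4 and 117 CPM, against 158 and 130 CPM. With HRAS and in irradiated WI-38, IMR-90, HAEC and HUVEC it was at 0.31, 0.29, -0.15, -0.02 and -0.08, none called.

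**Figure D3:**
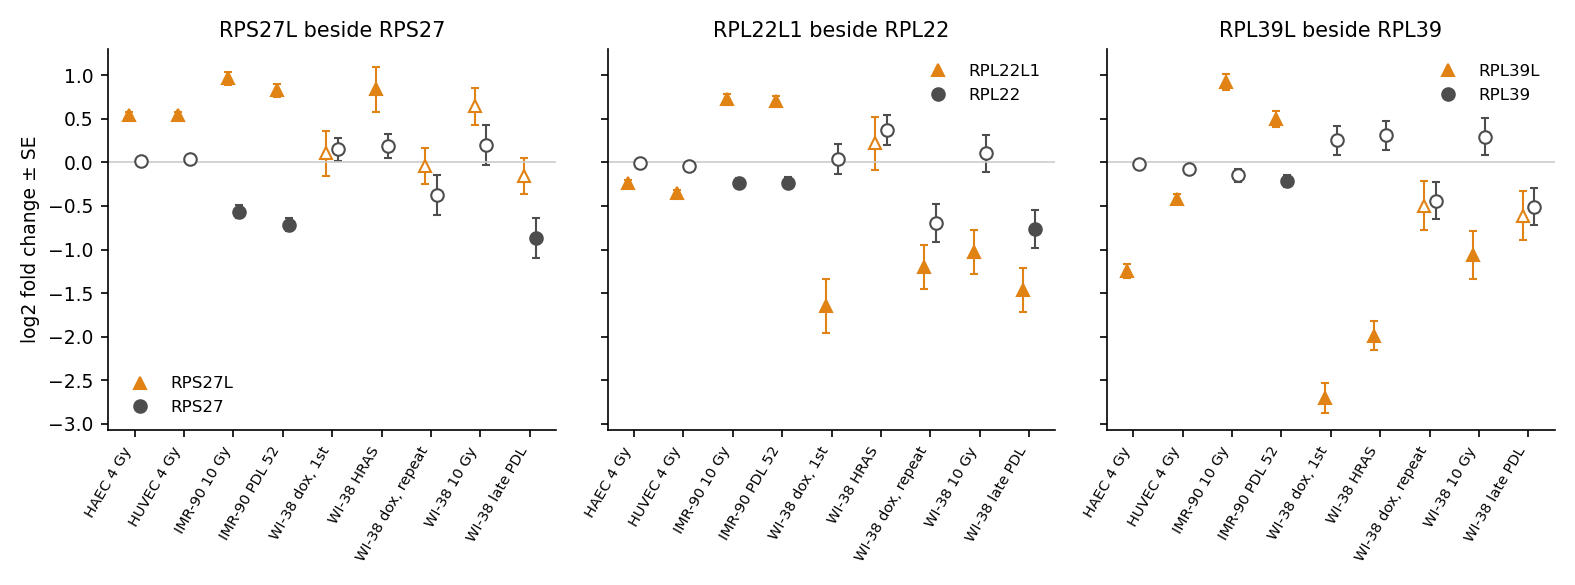
Log2 fold change over own control with its standard error for 3 paralogs (triangles) beside their partners (circles) in the 9 comparisons. Filled symbols are called; RPS27L lies above RPS27 in irradiated IMR-90 cells (0.96 against -0.57), and RPL39L reaches -2.70 in the first doxorubicin experiment.

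Across the 9 comparisons, of which the 2 on IMR-90 share controls, no core member was called in 1 direction in all. Of 77 core members 43 were called lower in at least 3 comparisons, where 23.1% of the 23667 genes tested in all 9 were, and 39 were called higher in at least 1, where 64.8% of those genes were. RPSA, singled out after its values were seen, was called lower in 8 of 9, as were 0.232% of those genes in at least 8, with log2 fold changes from -1.19 to -0.10, and with mutant HRAS it had 729 and 708 CPM, against 723 and 820 CPM. RPS19 was called lower in none and higher in 2.

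**Figure D4:**
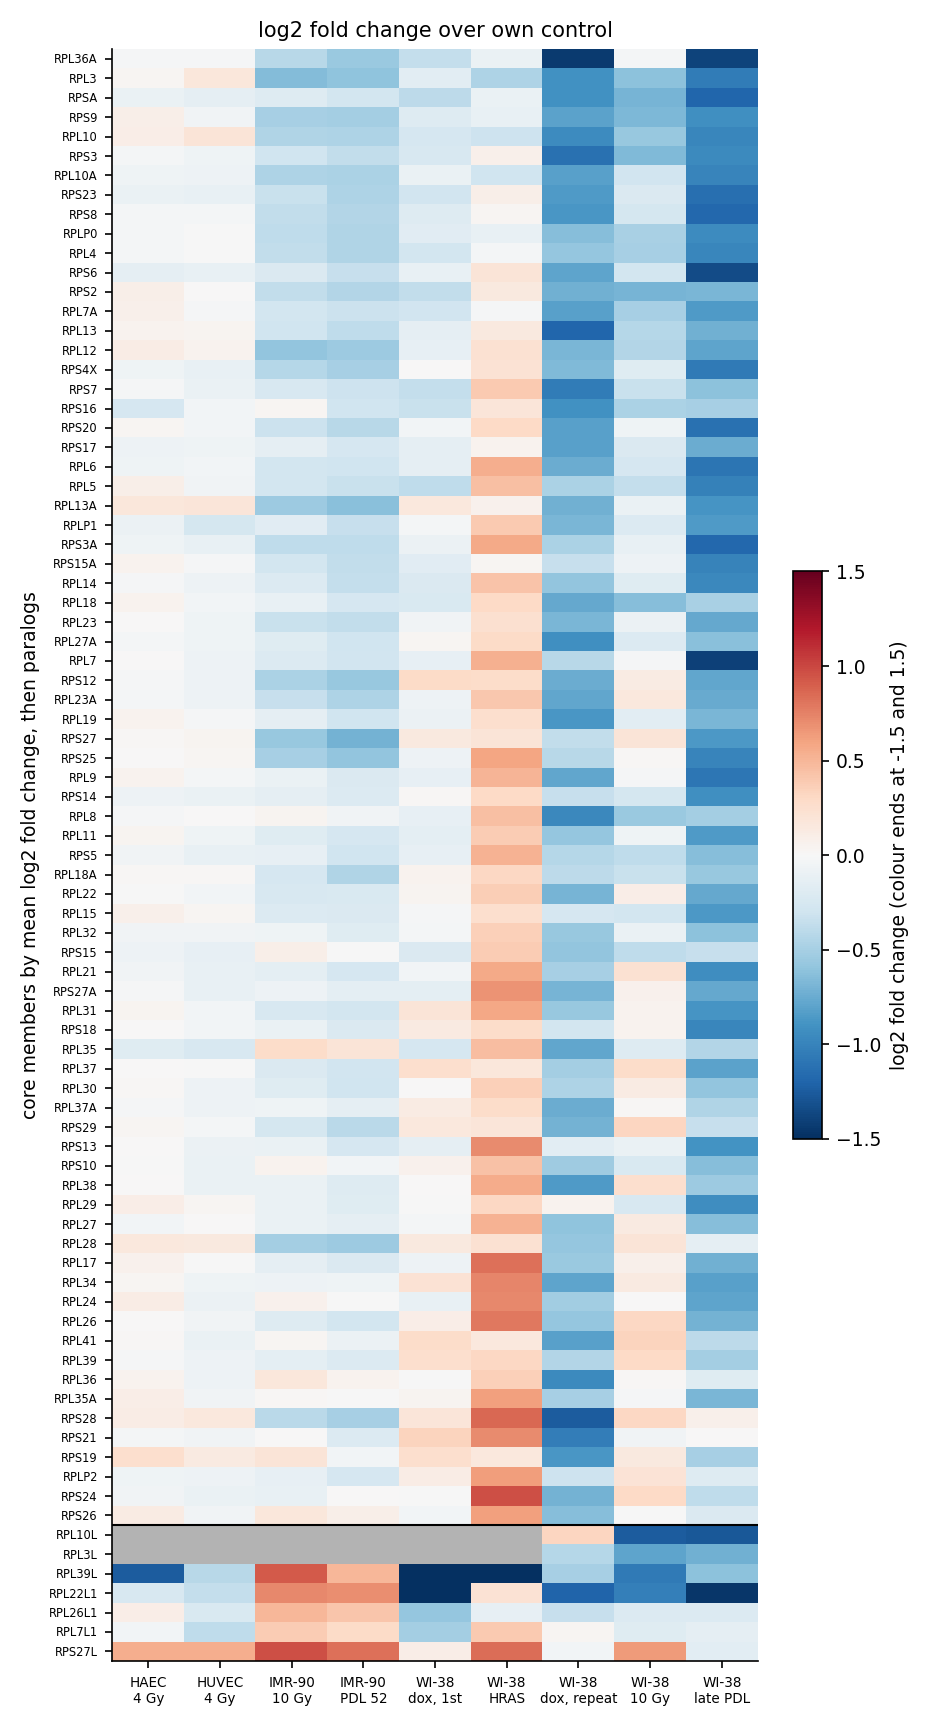
Log2 fold change over own control of the tested members but 1 (rows) in the 9 comparisons (columns). Core members are ordered by their mean, paralogs stand below the line and grey cells did not pass the filter; late-passage WI-38 cells and the repeat doxorubicin experiment are blue for nearly all core members, and with mutant HRAS most are red under the main scaling shown, whose median of 0.31 was 0.05 when scaled on protein-coding genes.

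Differences between WI-38 responses were tested too. The response to mutant HRAS exceeded that to doxorubicin in the same set for 23 of 82 members, where 21.6% of all 29380 genes did, and lay below it for none by edgeR, where 14% of all genes did, with 0 at an unadjusted p below 0.05 and 0 with DESeq2. Scaled on protein-coding genes alone the count was 6 above and 1 below, and it was 8 above on library totals and 11 in a fit of all 37 libraries. Under the main scaling the count above was 49 without empty vector replicate 1, 15 without control replicate 1, 9 without HRAS replicate 1, 6 and 3 without doxorubicin replicate 1 and 2, and 4 without control replicate 2, and 1 lay below without empty vector replicate 2. The repeat doxorubicin response differed from the first in 3 of 84 members, with 1 above, where 2.59% of all 36964 genes were, and 2 below, where 1.83% were. RPL39L had a log2 difference of 2.22 ± 0.35, RPS28 one of -1.42 ± 0.35 and RPS21 one of -1.35 ± 0.36 (adjusted p = 0.00026, 0.0179 and 0.0319). None lay below without first doxorubicin replicate 2, first control replicate 1, repeat doxorubicin replicate 1 or repeat control replicate 1, and 19 did without repeat control replicate 2. The DESeq2 Wald test put 16 below, no filter 10, protein-coding genes alone 6, library totals 1 and a fit of all 37 libraries 32, with 2 above. The sets of these experiments also differ in their share of protein-coding counts, so experiment and library kind cannot be told apart. The response to radiation in WI-38 exceeded that to late passage for 8 members, where 4.25% of all 33612 genes did, and lay below it for none by edgeR, where 2.01% of all genes did, with 0 at an unadjusted p below 0.05 and 0 with DESeq2. RPL7, RPL36A and RPL21 had the largest differences, at 1.39 ± 0.26, 1.36 ± 0.38 and 1.15 ± 0.27, and RPS6 had 1.07 ± 0.27 (adjusted p = 0.0283). That count was 1 on library totals and from 13 to 37 with the DESeq2 Wald test, no filter, the compared groups alone or all 37 libraries in 1 fit. It was 16 without irradiated replicate 1 and 2 without irradiated replicate 2. It was 1 without either control of the irradiated cells, late-passage replicate 1 or either proliferating library, and RPS6 was not called in the last 6 of these 7 cases (adjusted p from 0.0731 to 0.165).

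Other lists give the setting. The 16 other TOP mRNAs, which encode elongation and initiation factors and RNA-binding proteins, moved with the core members in late-passage WI-38 cells, where 10 were called lower and the median was -0.92. EIF4B, an initiation factor, fell by 1.53 ± 0.19 on the log2 scale and EIF3L by 1.17 ± 0.17 (adjusted p = 8.33e-05 and 0.000283). Their median was -0.70 in the repeat doxorubicin experiment, with 6 called lower, and -0.25 and -0.27 in irradiated and PDL 52 IMR-90 cells, with 11 and 12 called lower. In HAEC 9 of the 16 were called higher and 2 lower, where 19.7% and 19.9% of all genes were. Of all genes 6.82% were called lower in late-passage WI-38 cells and 2.26% in the repeat doxorubicin experiment. In irradiated and PDL 52 IMR-90 cells 22.5% and 23.5% of all genes were called lower. EEF2, the translocation factor, rose by 0.63 ± 0.03 in HAEC and 0.56 ± 0.04 in HUVEC, and fell by 0.97 ± 0.06 in irradiated IMR-90 cells.

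Mitochondrial ribosomal proteins are encoded in the nucleus but lie outside the module. They were mostly called higher in IMR-90 cells, where core members were mostly called lower. With mutant HRAS under the main scaling they were mostly called higher too, as were 27 of 77 core members and 27.1% of all genes. Scaled on protein-coding genes alone, 7 core members were higher and 7 lower. In irradiated IMR-90 cells 55 of 76 mitochondrial ribosomal proteins were called higher and 5 lower with a median of 0.36. At PDL 52 42 were higher and 7 lower with a median of 0.22. Of all genes 26.6% were called higher in each IMR-90 comparison, and 22.5% and 23.5% lower. MRPL36 rose by 1.14 ± 0.08 after radiation. With mutant HRAS 59 mitochondrial ribosomal proteins were called higher and 1 lower with a median of 0.67, and counts under other scalings are not given here. In irradiated HAEC 44 were called lower and 2 higher, in irradiated HUVEC 57 were lower, and the first doxorubicin experiment gave 26 lower. Of all genes 19.9%, 20.1% and 13.2% were called lower in these comparisons, in that order. Late-passage WI-38 cells had 3 mitochondrial ribosomal proteins higher and 2 lower with a median of 0.10, where 5.8% and 6.82% of all genes were. Short mRNAs of the respiratory chain, close to the members in length, had a median of 0.23 in late-passage WI-38 cells, of 0.25 and 0.20 in irradiated and PDL 52 IMR-90 cells, and of -0.50 in the repeat doxorubicin experiment. In that repeat none of the 23 were called by edgeR in either direction, with 8 lower and 0 higher at an unadjusted p below 0.05.

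**Figure D5:**
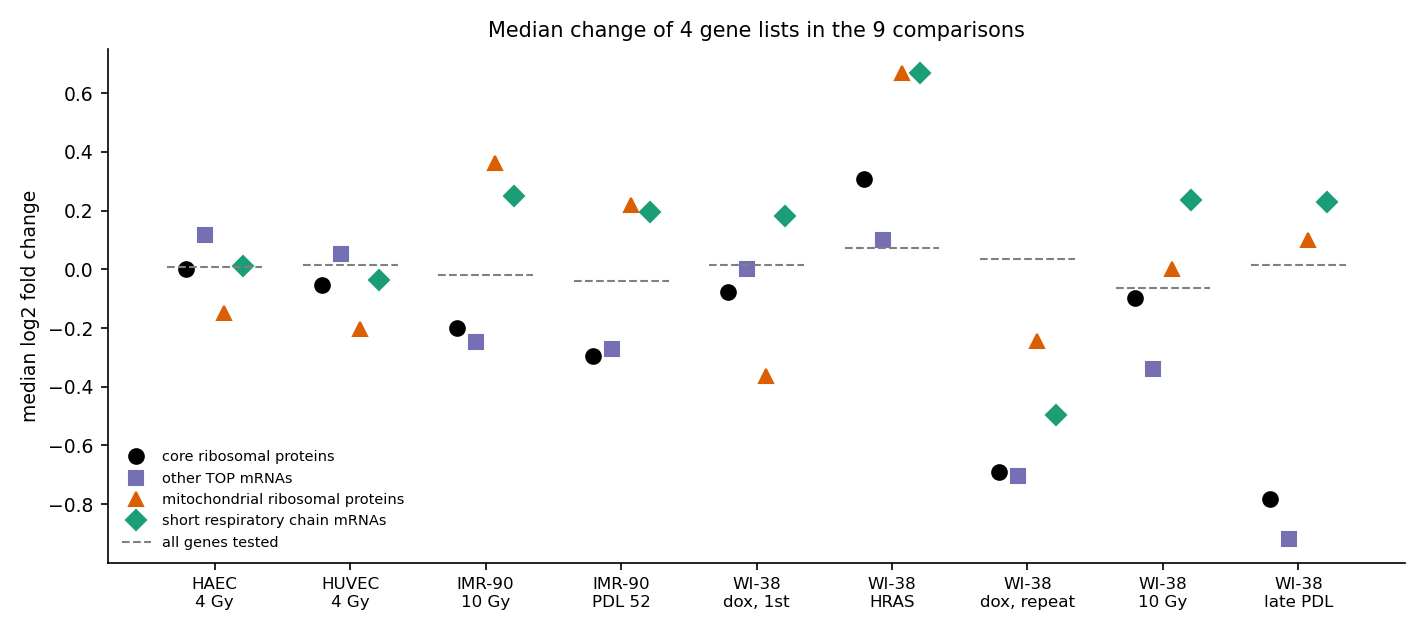
Median log2 fold change of 4 gene lists in the 9 comparisons, with the median of all genes tested as a dashed bar. Core ribosomal proteins and other TOP mRNAs lie together below 0 in late-passage WI-38 cells (-0.78 and -0.92), where short respiratory chain mRNAs lie at 0.23.

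Of the 12 regulators of the TOP pathway listed, EIF4EBP1, the mTOR target that restrains cap-dependent translation, was singled out after its values were seen. It was called lower in 8 comparisons. Its values ran from -0.43 ± 0.04 in HUVEC to -1.40 ± 0.23 in irradiated WI-38. Of the 23667 genes tested in all 9 comparisons, 0.232% were called lower in at least 8. MYC, which drives ribosome synthesis, rose by 1.35 ± 0.14 with mutant HRAS and fell by 0.57 ± 0.14 in the first doxorubicin experiment. Among the 8 host genes of snoRNAs, which guide rRNA modification, all 8 were called lower in HUVEC, with SNHG12 at -0.87 ± 0.05. In late-passage WI-38 cells 4 were called lower, with GAS5 at -1.05 ± 0.23. Of all genes 20.1% and 6.82% were called lower in these comparisons. The ribosome genes outside the rule included RACK1, a scaffold on the small subunit, which fell by 0.82 ± 0.17 in late-passage and by 0.85 ± 0.17 in repeat doxorubicin WI-38 cells.

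Core members with and without the TOP motif at the listed start were set side by side, with no test of the difference. In late-passage WI-38 cells the 46 with the motif had a median of -0.80 and the 16 without it -0.70, and in the repeat doxorubicin experiment -0.70 and -0.68. Irradiated IMR-90 cells gave -0.17 and -0.22, and PDL 52 cells -0.26 and -0.30. Irradiated WI-38 cells gave -0.06 with the motif and -0.17 without it, the first doxorubicin experiment -0.02 and -0.08, and mutant HRAS 0.30 and 0.37. HUVEC gave -0.06 and -0.03, and HAEC 0.00 and 0.01. The Spearman rho between the length of the principal transcript and the log2 fold change over the 77 core members differed between comparisons. It was -0.06 in HAEC, 0.08 in HUVEC, -0.41 in irradiated and -0.38 in PDL 52 IMR-90 cells, -0.29 in the first and -0.13 in the repeat doxorubicin experiment, -0.19 with mutant HRAS, and -0.37 in both irradiated and late-passage WI-38 cells. The 26 shortest core members had a median of -0.64 in late-passage WI-38 cells and the 26 longest -0.91, and in HUVEC the medians were -0.05 for both. These points share their libraries, and genes are not independent replicates. The lengths used ran from 296 to 7686 bases with a median of 705, and RPL37 had the longest. Whether the transcripts listed are those expressed in these cells is not known, so the ranking by length is uncertain. Members shared 2.42% (RPL11) to 59.8% (RPL10) of their 31-base stretches with other genes, only RPL10 more than 50%. Exons of 32 members overlap those of another gene on the same strand and of 30 on the opposite strand, and their counts are less certain for that reason.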

How the data were processed

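The authors deposited raw counts per gene for 37 libraries of rRNA-depleted total RNA. Per the submitters' processing notes bcl2fastq, cutadapt, STAR 2.4 and featureCounts were used with hg19. No source used here gives the annotation, the strand setting or the handling of reads with several matches. Of 57773 Ensembl identifiers, 51996 took symbols from the gene name table and 342 from GENCODE 29.

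The counts were fitted in R 4.3.3 with edgeR 4.0.16: filterByExpr, TMM scaling and the quasi-likelihood test with Benjamini-Hochberg adjustment over all genes tested, called at 0.05. HAEC, HUVEC, IMR-90 and the 2 sets of WI-38 experiments were fitted separately, each on all of its libraries, and differences between sets in a joint fit. The standard error is the absolute log2 fold change over the root of F. The fit was tested on simulated data. CPM use TMM-scaled library sizes. DESeq2 1.42.0, other scalings, no filter, other sample sets, a replicate block and leaving out each library were alternatives.

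Named genes are RPL3, RPS6, RPLP0, RPL5, RPL11 and 3 paralogs with their partners, then the 3 highest and 3 lowest called members with an average log2 CPM of at least 1, and up to 2 called genes per direction for other lists. Some of those chosen are given by counts only, and 1 core member enters the counts and medians but is not reported here by name. The members and lists were chosen with earlier results of these data known. Library totals ran from 102293388 to 370996204 counts, and the standard errors rest on the spread between libraries.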

Additional observations from a re-analysis of the deposited data

Results flagged for a closer look

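Each of these results is a difference between 2 responses that passed its own test (edgeR's quasi-likelihood test with Benjamini-Hochberg adjustment over all genes). Between irradiated HUVEC and irradiated HAEC, the log2 difference of the response was 0.15 for RPL3 (adjusted p = 0.0108), -0.14 for RPL5 (adjusted p = 0.0198) and 0.83 for RPL39L (adjusted p = 5.57e-07). RPL39L was called lower in both endothelial cell types, at -0.42 in HUVEC and -1.25 in HAEC.

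Between irradiated and PDL 52 IMR-90 cells RPL39L differed by 0.43 (adjusted p = 0.00738), a call lost without either irradiated library (adjusted p = 0.0678 and 0.0826). The response to mutant HRAS differed from that to the first doxorubicin treatment of WI-38 by 0.84 for RPL5 (adjusted p = 0.04), 0.53 for RPL11 (adjusted p = 0.0431), 1.87 for RPL22L1 (adjusted p = 0.00568) and 0.71 for RPL39L (adjusted p = 0.0289). The call of RPL5 was lost without 5 of the 8 libraries and that of RPL11 without 6 of the 8, while that of RPL22L1 held without each.

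Between the repeat and the first doxorubicin experiment RPL39L differed by 2.22 (adjusted p = 0.00026). It had 2.22 and 3.42 CPM with the drug in the repeat, against 4.46 and 3.5 CPM in its controls, and 2.20 and 1.82 CPM with the drug in the first experiment, against 12.1 and 14 CPM in its controls. Between irradiated and late-passage WI-38 cells RPS6 differed by 1.07 (adjusted p = 0.0283), a call lost without 6 of the 8 libraries.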

How the results depend on the processing

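Most values of single named genes kept their direction and their side of the threshold: 2344 did, 185 lost a call, 95 gained one and 0 reversed. Counts of members called moved more, and the cause was not tested. The share of all genes called under each setting, or without single libraries, is not given here. These counts therefore do not show whether members moved more than other genes. One fit of all 37 libraries gave 1 higher and 1 lower in HAEC with a median of 0.047, 1 and 1 in HUVEC, 11 lower in irradiated and 16 in PDL 52 IMR-90, 8 lower for the first doxorubicin, 4 lower for HRAS, 66 lower for the repeat, and 1 higher and 17 lower in irradiated WI-38. Its differences were 0 and 0 for HUVEC minus HAEC, 0 higher within IMR-90, 11 higher for HRAS minus doxorubicin, 2 higher and 32 lower for repeat minus first, and 37 higher for irradiated minus late-passage WI-38. Library totals alone moved the median of all genes by up to -0.28. They gave 31 higher and 4 lower in HAEC with a median of 0.057, 7 lower in HUVEC, 4 higher and 71 lower in irradiated IMR-90 with a median of -0.43, a median of -0.48 at PDL 52, 14 lower for the first doxorubicin with a median of -0.25, 4 higher and 7 lower for HRAS with a median of 0.026, and 8 lower in irradiated WI-38. The differences gave 1 higher for HUVEC minus HAEC, within IMR-90 and for irradiated minus late-passage WI-38, 8 higher for HRAS minus doxorubicin and 1 lower for repeat minus first. Protein-coding genes alone gave 7 higher and 8 lower for HRAS, 1 and 7 in irradiated WI-38, 15 lower for HUVEC minus HAEC, 6 higher and 1 lower for HRAS minus doxorubicin and 6 lower for repeat minus first. Without a filter there were 8 lower for the first doxorubicin, 43 for the repeat, 1 higher and 7 lower in irradiated WI-38, and differences of 6 higher within IMR-90, 10 lower for repeat minus first and 13 higher for irradiated minus late-passage WI-38. The DESeq2 Wald test gave 49 lower for the repeat, 1 higher and 9 lower in irradiated WI-38, 16 lower for repeat minus first and 17 higher for irradiated minus late-passage WI-38. DESeq2 size factors gave 7 lower in irradiated WI-38 and 1 higher within IMR-90. The compared groups alone gave 9 higher and 21 lower for the first doxorubicin, 10 higher for HRAS, 4 lower for the repeat, 1 higher and 5 lower in irradiated WI-38, and 22 higher for irradiated minus late-passage WI-38. Adding pseudogene counts to the members moved none of these results beyond 1.5 times. With a replicate block the counts were 11 higher and 4 lower in HAEC, 9 lower in HUVEC, 1 higher and 5 lower for HUVEC minus HAEC and 1 higher within IMR-90. Deviations of same-numbered libraries correlated between -0.169 and 0.501, and with no label tying the numbers they were not taken as pairs. The correlation was 0.501 for HRAS and 0.270 for irradiated WI-38, where the replicate block gave 37 higher and 3 lower and 4 lower, and RPL5 passed with HRAS (adjusted p = 0.0299). Without single libraries, higher counts ran from 9 to 18 in HAEC, 6 to 8 in HUVEC, 5 to 9 in irradiated and 5 to 6 in PDL 52 IMR-90, and 10 to 50 for HRAS. Lower counts ran from 4 to 9, 7 to 30, 30 to 56, 49 to 65 and 1 to 8 in the same order, 2 to 2 for the first doxorubicin, 0 to 43 for the repeat, 1 to 8 in irradiated and 14 to 53 in late-passage WI-38. Medians ran from -0.01 to 0.02, -0.07 to -0.05, -0.26 to -0.12, -0.35 to -0.20, -0.15 to -0.01, 0.10 to 0.40, -0.82 to -0.48, -0.28 to 0.00 and -1.0 to -0.56 in HAEC, HUVEC, irradiated and PDL 52 IMR-90, first doxorubicin, HRAS, repeat, irradiated and late-passage WI-38. Differences ran from 1 to 2 higher and 4 to 27 lower for HUVEC minus HAEC, 0 to 11 higher within IMR-90, 3 to 49 higher and 0 to 1 lower for HRAS minus doxorubicin, 0 to 19 lower for repeat minus first and 1 to 16 higher for irradiated minus late-passage WI-38.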

Other observations

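Levels of some members differed between the 25 libraries with the lower share of protein-coding counts and the 12 with the higher share. Of 77 core members 15 had every value in the 12 libraries above every value in the 25, 2 had every value below, and 60 overlapped. RPS16, a small-subunit protein, had 189 to 761 CPM in the 12 libraries, with a median of 378 CPM, and 2.78 to 6.35 CPM in the 25, with a median of 4.48 CPM. RPL29 had 30.3 to 124 CPM in the 12 and 133 to 352 CPM in the 25. Each set was scaled on its own, so these levels are set across separately scaled tables, and no test was made. Whether reads were counted in the same way for both kinds of library is not known, so the gap for RPS16 may not be one in expression. The comparisons of the report stay within a set or, for the repeat minus first doxorubicin response, compare fold changes.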
